A study of Mus musculus with 30 samples.

Results

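Uterine RNA of mice that lack estrogen receptor alpha was compared with that of wild-type mice after injection of insulin-like growth factor 1 (IGF1). The comparison takes 12 of the 30 Affymetrix arrays of the series, chosen by their labels: 3 knockout and 3 wild-type uteri at 2 h, and 3 of each at 24 h. Every mouse is labelled as a 21-day-old prepubertal female, and the knockout is labelled Ex3aERKO, a line that lacks an exon of the receptor gene Esr1. The 2 h groups received 50 µg IGF1 in PBS by a single intraperitoneal injection. The 24 h groups received the same amount 3 times, at the start and at 8 h and 16 h, and the uterus was taken at 24 h, so time and number of injections differ together. Knockout and wild-type mice given 100 µl saline and killed at 24 h, 3 of each, served as the vehicle background. No vehicle group at 2 h was used here. The labels do not say whether the 3 arrays of a group came from separate mice, so p-values measure the spread between these arrays, which may be partly technical.

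Estrogen receptor alpha is a transcription factor that estradiol activates, and in the rodent uterus it drives growth, secretion and the division of epithelial cells. IGF1 is a growth factor made by the uterine stroma in response to estradiol. It acts through the receptor tyrosine kinase IGF1R and the adaptors IRS1 and IRS2 on the PI3K-AKT and MAPK pathways, and these pathways can also phosphorylate estrogen receptor alpha. The comparison asks which uterine transcripts differ between the genotypes when the growth factor is supplied.

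Each gene has 1 log2 level per array, so a difference of 1 is a doubling. A difference is knockout minus wild type, with the standard error (SE) of a limma fit to all 30 arrays. A gene was called at a Benjamini-Hochberg adjusted p under 0.05 over 30142 genes. A group was taken as above background when its level exceeded the array's floor, the 95th percentile of 1084 olfactory receptor genes, which lay between 5.81 and 6.02 on the 12 arrays. Fold changes against a group at that floor are given as "at least".

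The 12 arrays had medians of 6.17 to 6.29 and correlated with the others of their group at 0.981 to 0.993. In 3 of the 4 IGF1 groups 1 array had a profile somewhat apart from the other 2. Array 2 of the wild type at 2 h had S100a8, a neutrophil protein, at 14.26 against 8.49 and 8.28, and the adipocyte hormone Adipoq at 12.23. Array 3 of the knockout at 2 h had a high level of Arrdc3, at 12.64. Array 2 of the knockout at 24 h had the estrogen-responsive genes Ltf at 13.38 (7.24 and 7.45 in the others) and Sprr2f at 15.46 (9.65 and 9.91). Its S100a8 was at 15.00, and Ltf is a neutrophil marker as well. Among the vehicle arrays, the array labelled wild-type vehicle array 1 had the X-inactivation transcript Xist at 10.16, against 17.01 to 17.97 on the IGF1 arrays. This goes against its female label, and the cause was not tested. Results that lean on these arrays are given with and without them.

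Esr1 itself was lower in every knockout array. Its level was 11.96, 11.62 and 11.87 in the wild type at 2 h and 9.75, 10.08 and 10.10 in the knockout, and at 24 h it was 12.20, 12.38 and 12.22 against 10.14, 9.95 and 10.28. The groups did not overlap, and the knockout stayed well above the floor. The difference was -1.84 ± 0.19 at 2 h (3.58-fold lower, adjusted p = 1.19e-05) and -2.14 ± 0.19 at 24 h (4.41-fold, adjusted p = 8.46e-07). Whether this probe set reads the deleted exon is not given in the sources used here, so it is a limited check of the genotype. Greb1, a cofactor gene that estrogen receptor alpha activates, lay at the floor in the knockout (5.43, 5.49 and 5.53 at 2 h) and above it in the wild type (6.50, 6.29 and 6.64), at least 1.45-fold lower at 2 h and at least 1.24-fold at 24 h. Of the 13 measured steroid receptors and cofactors, 2 were called lower at 2 h and 3 at 24 h, none higher. The third gene at 24 h was the mineralocorticoid receptor Nr3c2 (-0.60 ± 0.14, adjusted p = 0.0194). The progesterone receptor gene Pgr was not called, at -0.36 ± 0.33 at 2 h and 0.11 ± 0.33 at 24 h.

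At 2 h, 311 genes were called higher in the knockout (1.03% of the genes tested) and 278 lower (0.922%). At 24 h, 418 were called higher (1.39%) and 444 lower (1.47%). Averaged over both times the counts were 806 higher (2.67%) and 742 lower (2.46%). The median difference over all genes was 0.02 at 2 h and 0.04 at 24 h. The normalization behind the deposited values is not known, so these medians cannot test for a shift as a whole. Knockout and wild-type arrays did not overlap in 578 of the 589 genes called at 2 h and 856 of the 862 called at 24 h. Absence of overlap was also a condition for the ranking of genes within a comparison. Where it is given for a gene below, it describes the levels and adds no support. The 2 h calls depended on the spread estimated from all 30 arrays: when the fit held the compared groups alone, 24 genes were called at 2 h (18 higher, 6 lower) and 663 at 24 h. They also depended on single arrays, with 270 genes called without wild-type array 1, 335 without wild-type array 3 and 956 without knockout array 1. At 24 h the count was 357 without wild-type array 2, 352 without knockout array 1 and 366 without knockout array 3, and it was 1416 without the 4 arrays that stood apart.

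A core of 216 genes was called in the same direction at both times, 131 higher (0.435% of genes tested) and 85 lower in the knockout (0.282%), and no gene was called in opposite directions. Their median difference was 1.21 at 2 h and 1.14 at 24 h for the higher genes, and -1.35 and -1.59 for the lower ones. The arrays at 2 h and 24 h are different arrays, but the calls at both times use the same estimate of each gene's spread. A gene with a small estimated spread is favoured at both times, so the 2 calls are not independent. A fit of the compared groups alone called 10 genes at both times, and leaving out the 4 arrays that stood apart gave 398. Leaving out 1 array gave 120 to 226, with 120 and 125 without knockout array 3 or 1 at 24 h, 122 and 141 without wild-type array 1 or knockout array 2 at 2 h, and 142 without wild-type array 2 at 24 h.

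**Figure D1:**
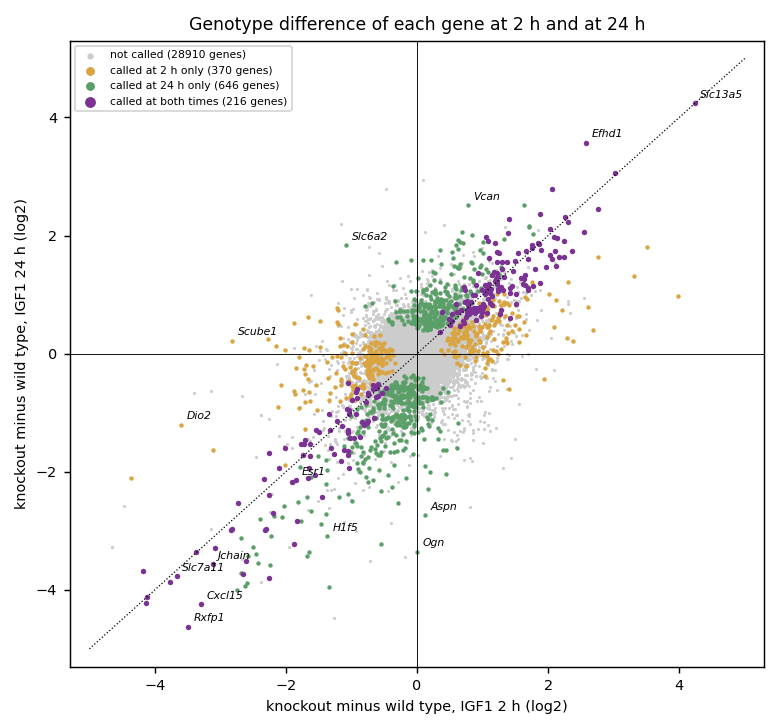
Each point is 1 of 30142 genes, with the knockout minus wild-type difference (log2) under IGF1 at 2 h on the horizontal axis and at 24 h on the vertical axis. The 216 genes called at both times lie in the upper right or lower left corner of the plot, with Slc13a5 at 4.23 and 4.24 and Rxfp1 at -3.49 and -4.62.

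The genes that were most reduced at both times code for a hormone receptor, secreted proteins and a transporter. Rxfp1, the receptor of the pregnancy hormone relaxin, was at 11.76, 11.55 and 11.79 in the wild type at 2 h and at 8.03, 7.48 and 9.13 in the knockout. By 24 h it was at 12.72, 12.99 and 12.69 against 8.29, 7.85 and 8.39. The genotypes were far apart at each time, and the knockout was 11.3-fold lower at 2 h (adjusted p = 8.60e-06) and 24.7-fold lower at 24 h (adjusted p = 5.96e-08). Slc7a11, the cystine-glutamate exchanger that supplies cystine for glutathione synthesis, was at 11.44, 12.45 and 11.46 against 8.45, 8.56 and 7.32 at 2 h. The 24 h levels were 10.17, 9.53 and 10.42 against 5.91, 6.67 and 6.22. The genotypes did not overlap, and the knockout was 12.7-fold lower at 2 h and 13.6-fold lower at 24 h.

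Cxcl15, a chemokine of the uterine glands, was at 10.73, 7.88 and 10.74 in the wild type at 2 h and at 7.41, 5.20 and 6.87 in the knockout. The levels after 24 h were 10.55, 10.05 and 10.58 against 6.33, 6.41 and 5.71. The low wild-type value at 2 h was that of array 2, close to the highest knockout value, and without that array the 2 h difference was -4.24 in place of -3.29. The 2 h call was kept in 11 of 15 alternatives and the 24 h call in 15 of 15. The knockout was 9.79-fold lower at 2 h and 19.0-fold lower at 24 h. In whole uterus, fewer cells of a type and less RNA per cell cannot be told apart, and this holds for every gene of a single cell type below. Jchain, which joins the subunits of secreted IgA and IgM, was at 11.19, 10.79 and 10.07 against 7.38, 7.11 and 8.19 at 2 h. Levels at 24 h were 10.87, 10.26 and 10.37 against 6.45, 7.55 and 6.80. The knockout was 8.70-fold lower at 2 h and 11.8-fold lower at 24 h, and Jchain was the only called gene of the 7 measured B and plasma cell markers.

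Enzymes and matrix genes followed. Plat, the tissue plasminogen activator, was at 12.68, 11.18 and 13.09 in the wild type at 2 h against 10.18, 10.28 and 9.88, and at 11.70, 11.47 and 12.20 against 8.73, 9.77 and 8.80 at 24 h. No arrays overlapped, and the knockout was 4.61-fold and 6.46-fold lower. Aldh1a1, which makes retinoic acid, was 4.95-fold lower at 2 h and 7.81-fold lower at 24 h. Akr1c14, a hydroxysteroid dehydrogenase, lay at the floor in the knockout and was at least 2.40-fold lower at 2 h and at least 4.79-fold lower at 24 h. The transcription cofactor gene Lbh was 4.78-fold and 3.22-fold lower, and Mfap4, a protein of elastic microfibrils, 2.95-fold and 4.17-fold lower. The 2 h call of Mfap4 was kept in 10 of 15 alternatives.

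The gene with the largest increase at both times was Slc13a5, the plasma membrane citrate transporter. It was at 6.68, 6.97 and 6.65 in the wild type at 2 h and at 10.22, 11.53 and 11.26 in the knockout. By 24 h it was at 6.81, 6.13 and 7.0005 against 11.88, 8.92 and 11.86. The wild type stayed close to the floor, and the low knockout value at 24 h was that of array 2. The knockout was 18.8-fold higher at 2 h (adjusted p = 3.43e-05) and 18.9-fold higher at 24 h (adjusted p = 2.80e-05), and the 24 h difference rose from 4.24 to 5.23 without knockout array 2. A second transporter, the glutamate carrier Slc1a1, was 4.91-fold and 4.66-fold higher, with knockout levels of 10.43, 11.65 and 10.41 at 2 h and 11.41, 10.31 and 11.83 at 24 h against wild-type levels of 8.40 to 9.10.

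S100g, Efhd1 and Mt2 were also called higher at both times. S100g, a cytosolic calcium-binding protein of the uterine epithelium, was at 12.24, 11.996 and 12.24 in the wild type at 2 h and at 14.13, 14.71 and 14.38 in the knockout. The 24 h levels were 13.79, 12.21 and 13.13 against 14.88, 15.06 and 16.16. The knockout was 4.76-fold and 4.99-fold higher, and 2 of 3 wild-type arrays at 24 h lay above all wild-type arrays at 2 h. The mitochondrial calcium-binding protein gene Efhd1 was 5.98-fold higher at 2 h and 11.9-fold higher at 24 h. The metallothionein gene Mt2 was 3.65-fold and 5.13-fold higher. At 24 h only, the calcium buffer Calb1 was called (2.15 ± 0.48, adjusted p = 0.0131), with a 2 h difference of 1.70 ± 0.48 and an adjusted p of 0.0679.

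Hdc, which makes histamine from histidine, was at 10.11, 9.74 and 11.15 in the wild type at 2 h and at 12.45, 12.60 and 12.13 in the knockout. The levels after 24 h were 9.76, 9.26 and 9.83 against 12.57, 11.47 and 13.19. The groups did not overlap, with 4.17-fold and 6.92-fold higher levels, and none of the other 7 mast cell markers was called, and the medians of that list were 0.08 and -0.35. The 2 h call of Hdc was kept in 10 of 15 alternatives and was lost without wild-type array 1 or 2 or knockout array 2 (1.76, adjusted p = 0.0927, without wild-type array 2). Further genes called higher at both times were the proton pump subunit Atp6v0d2, the carboxypeptidase-like Cpxm2, the mucosal chemokine Cxcl17 and the R-spondin receptor Lgr5, with differences over both times of 2.30 ± 0.31, 2.08 ± 0.19, 2.07 ± 0.35 and 2.05 ± 0.19.

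**Figure D2:**
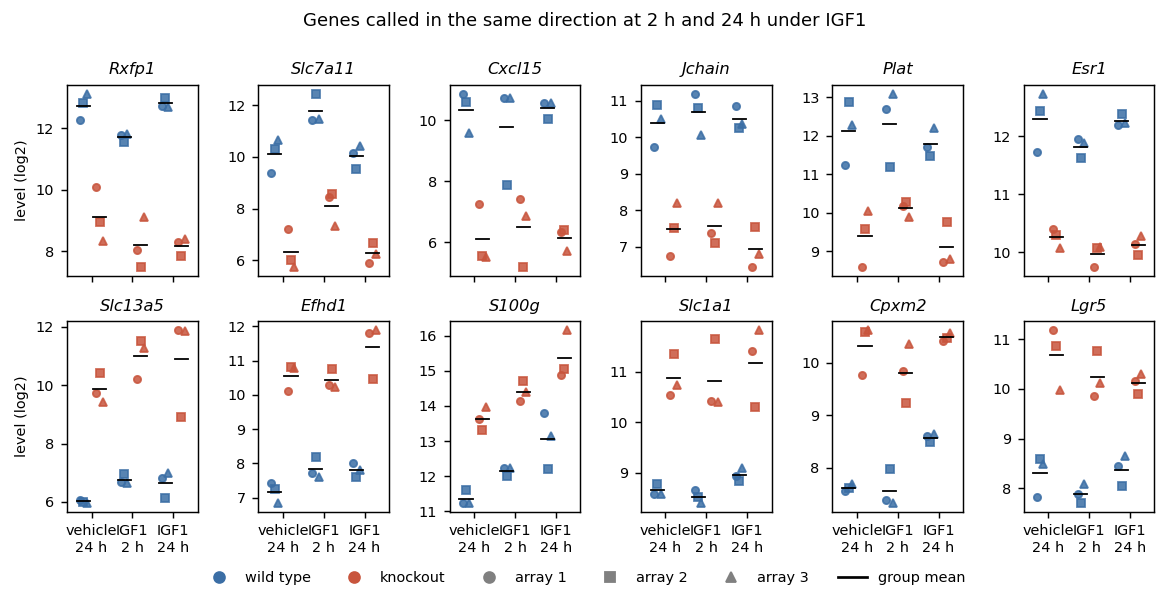
Log2 levels of 12 genes in every vehicle and IGF1 array (blue wild type, red knockout, marker shape the array number, black line the group mean). In the upper row the wild type lies above the knockout in all 3 conditions, and in the lower row the knockout lies above the wild type, with Slc13a5 of knockout array 2 at 24 h at 8.92 below the other knockout arrays.

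Of the genes ranked highest at 2 h, several were called at 2 h and not at 24 h under IGF1. Stc1, a secreted glycoprotein that inhibits the protease PAPPA and so the release of IGFs from their binding proteins, was at 10.12, 9.45 and 9.63 in the wild type and 12.63, 14.67 and 11.84 in the knockout. All knockout arrays lay above all wild-type arrays, and the difference was 3.31 ± 0.48 (9.93-fold, adjusted p = 0.000300). At 24 h it was 1.32 ± 0.48 and was not called. The cardiac troponin gene Tnnt2 (2.77 ± 0.57), the secreted protein gene Coch (2.61 ± 0.46) and the kinase gene Cdkl1 (2.31 ± 0.35) were called at 2 h and not at 24 h. Stc1, Tnnt2 and Coch were also called higher with vehicle, by 3.26 ± 0.48, 3.12 ± 0.57 and 3.49 ± 0.46, so these differences were not particular to IGF1 at 2 h. Prap1, an epithelial secreted protein, was at 8.35, 8.68 and 7.89 against 11.89, 11.02 and 13.94, and its call (adjusted p = 0.0423) was kept in only 5 of 15 alternatives. Arrdc3, an arrestin-like protein that FoxO factors induce, was at 7.91, 7.86 and 7.86 against 9.20, 9.86 and 12.64. Its difference of 2.69 ± 0.50 fell to 1.66 without knockout array 3 and was still called (adjusted p = 0.00382). Arrdc3 was also called higher with vehicle.

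Among the genes reduced at 2 h, Dio2, the deiodinase that activates thyroid hormone, was at 9.98, 9.86 and 10.74 in the wild type and 6.28, 6.69 and 6.80 in the knockout. The groups were widely separated, at 12.2-fold (-3.60 ± 0.43, adjusted p = 3.19e-05). At 24 h the difference was -1.20 ± 0.43 and was not called. The secreted EGF-domain protein gene Scube1 was at 10.13, 9.46 and 11.06 against 7.33, 7.89 and 6.97 at 2 h, 7.08-fold lower in the knockout. At 24 h its levels overlapped, at 8.58, 7.95 and 9.52 against 9.07, 8.61 and 9.03. Cd248, a surface protein of stromal cells and pericytes, was at 12.97, 12.20 and 12.79 against 11.62, 10.86 and 8.66. Its difference of -2.27 ± 0.54 rested on knockout array 3, since without it the difference was -1.41 and was not called (adjusted p = 0.169).

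At 24 h the largest differences in genes called under IGF1 at that time and not at 2 h included matrix proteins in both directions. Vcan, the large proteoglycan versican, was at 9.83, 8.56 and 10.24 in the wild type and 12.42, 11.54 and 12.22 in the knockout. It was 5.72-fold higher in the knockout (adjusted p = 0.000120), with no overlap. Ogn, the small leucine-rich proteoglycan osteoglycin, was at 13.47, 13.26 and 11.82 against 8.80, 10.38 and 9.30, 10.3-fold lower in the knockout. At 2 h its levels overlapped fully, at 12.78, 11.88 and 12.22 against 13.09, 10.94 and 12.86. The related Aspn was 6.68-fold lower at 24 h, and Fxyd4, a regulator of the sodium pump, was 5.76-fold higher. The secreted protein genes Egfl6 and Wfdc15b were 10.5-fold and 7.13-fold lower at 24 h. Both were also called lower with vehicle, at -3.18 ± 0.67 and -2.93 ± 0.67. H1f5, a linker histone made mainly in dividing cells, was at 11.23, 9.83 and 10.65 against 6.26, 9.23 and 6.95 at 24 h. The knockout value of 9.23 was again that of array 2, and the difference was -3.09 ± 0.60 with it and -3.97 without it.

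Within the IGF and insulin axis, 28 genes were measured. At 2 h 4 of them were called higher and 1 lower in the knockout, and at 24 h 1 was called in each direction. The median difference of the list was 0.01 at 2 h and -0.03 at 24 h, close to that of all genes. The growth factor gene Igf2 was at 6.27, 6.37 and 6.28 in the wild type and 7.57, 7.02 and 7.36 in the knockout at 2 h, and at 6.25, 6.20 and 6.12 against 6.70, 7.26 and 6.90 at 24 h. It was the 1 gene of the list called higher at both times, by 1.01 ± 0.19 (adjusted p = 0.00318) and 0.77 ± 0.19 (adjusted p = 0.0233), at levels near the floor. The 24 h call was kept in 9 of 15 alternatives and was lost, for one, without knockout array 2 (0.61, adjusted p = 0.122).

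The adaptors differed from each other. Irs1, which couples the IGF1 and insulin receptors to PI3K, was at 10.49, 10.05 and 10.49 in the wild type and 8.86, 9.12 and 9.12 in the knockout at 24 h. The difference was -1.32 ± 0.27 (adjusted p = 0.00617), with no overlap, and this call was kept in 15 of 15 alternatives. At 2 h the difference was -0.90 ± 0.27 and was not called (adjusted p = 0.0869). Irs4 was called higher at 2 h, with the wild type at the floor, and was at least 2.25-fold higher (adjusted p = 0.00756). Irs2 was not called, at 0.83 ± 0.51 at 2 h and -1.82 ± 0.51 at 24 h (adjusted p = 0.0544). Grb14 and Grb10, adaptors that dampen insulin and IGF1 receptor signalling, moved apart at 2 h, at 0.84 ± 0.21 (adjusted p = 0.0383) and -0.70 ± 0.18 (adjusted p = 0.0374), with calls kept in 5 and 7 of 15 alternatives.

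The mouse's own Igf1 transcript was at 10.50, 9.62 and 10.44 in the wild type and 9.28, 8.76 and 9.96 in the knockout at 2 h, with overlap. Its difference was -0.85 ± 0.28 at 2 h and -0.46 ± 0.28 at 24 h, and neither was called. With vehicle Igf1 was the 1 gene of this list called lower, and Stc1 and Grb14 were called higher. The receptor gene Igf1r was not called either, at 0.65 ± 0.33 and -0.19 ± 0.33.

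Genes of mitosis and G2/M were lower in the knockout at 24 h in 2 of 3 arrays. Set against the mean of the wild-type arrays at the same time, the median of the 30 measured genes was -1.15 in knockout array 1 and -1.05 in array 3, with 30 of 30 genes below the wild-type mean in each. In knockout array 2 the median was 0.11, with 12 of 30 genes below that mean. The proliferation marker Mki67 was at 10.39, 10.65 and 10.52 in the wild type and 8.25, 10.69 and 8.38 in the knockout. The topoisomerase gene Top2a was at 10.51, 10.63 and 10.99 against 8.53, 10.52 and 8.65. In both genes array 2 of the knockout lay in or next to the range of the wild type, and the other 2 arrays lay well below.

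The count of mitosis genes called at 24 h therefore depended on that array. With all arrays it was 3 of 30, all lower (the kinases Pbk and Ttk and the kinetochore protein Nuf2), with a list median of -0.73. Without knockout array 2 it was 19 of 30, all lower, with a median of -1.09, and without knockout array 1 or 3 it was 0. Mki67 went from -1.41 (adjusted p = 0.252) to -2.21 (adjusted p = 0.0293), and Top2a from -1.48 (adjusted p = 0.205) to -2.12 (adjusted p = 0.0474). The same array had high Ltf, Sprr2f and S100a8 (above). The part of its profile in the mitosis count was not tested beyond leaving the array out.

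At 2 h no mitosis gene was called by limma, 7 of 30 had an unadjusted p under 0.05, and the list median was -0.42. The 3 knockout arrays had medians of -0.42, -0.45 and -0.43 against the wild-type mean, and wild-type array 2 lay lower still, at -0.56, while wild-type arrays 1 and 3 were at 0.10 and 0.43. Without wild-type array 2, 2 mitosis genes were called lower and the median was -0.66. Over both times 7 of 30 were called lower, 23 without knockout array 2 at 24 h and 17 without wild-type array 2 at 2 h. The count fell to 1 when wild-type array 1 or 3 at 2 h, or wild-type array 3 or knockout array 1 or 3 at 24 h, was left out. Of 30 DNA replication and G1/S genes, 4 were called lower over both times, among them E2f8 (adjusted p = 0.00408) and Gins1 (adjusted p = 0.00795), both at the floor in the knockout at 2 h.

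**Figure D3:**
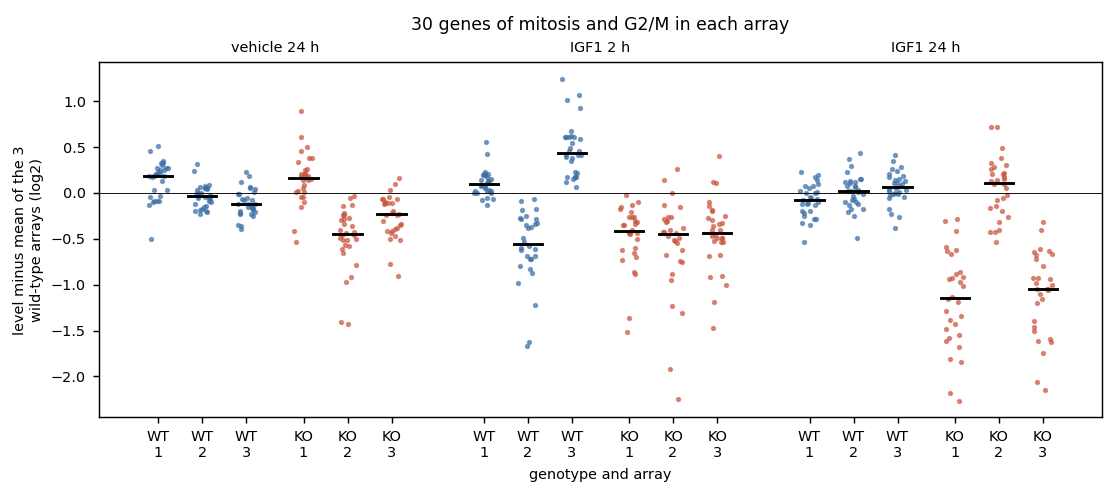
Level of each of 30 mitosis and G2/M genes minus the mean of the 3 wild-type arrays of the same condition (log2), in every vehicle and IGF1 array (WT wild type in blue, KO knockout in red, horizontal line the median). At 24 h of IGF1, knockout arrays 1 and 3 have medians of -1.15 and -1.05, whereas knockout array 2 is at 0.11.

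Of 17 G1 cyclin, partner kinase and inhibitor genes, 2 were called higher at 2 h, and 2 higher and 1 lower at 24 h, with medians of 0.15 and -0.26. Ccnd2, cyclin D2, was at 11.50, 12.53 and 11.66 in the wild type and 14.03, 13.95 and 12.95 in the knockout at 2 h. Levels at 24 h were 11.05, 10.41 and 10.39 against 12.54, 12.26 and 12.59. The knockout was above the wild type in all arrays at both times, by 1.75 ± 0.26 and 1.85 ± 0.26. Ccnd2 was also called higher with vehicle. Ccnd3 was called higher by 0.36 ± 0.09 and 0.37 ± 0.09. The kinase partner Cdk6 was called lower at 24 h (-1.01 ± 0.25, adjusted p = 0.0276).

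Collagen and matrix genes were lower in the knockout. Of 28 measured, 8 were called lower at 2 h, 5 at 24 h and 12 over both times, and none was called higher. The list medians were -0.49 at 2 h and -0.42 at 24 h, against 0.02 and 0.04 for all genes. With vehicle 6 of 28 were called lower and none higher, with a median of -0.35, so this was not particular to IGF1. At 2 h the called genes were led by Col6a3, a chain of the microfibrillar collagen VI, at 11.91, 10.99 and 11.67 in the wild type and 9.68, 9.26 and 9.28 in the knockout. It was 4.34-fold lower (adjusted p = 0.000316), and the matrix glycoprotein gene Tnc was 3.66-fold lower. The other collagen VI chains Col6a2 and Col6a1 were lower by -1.38 ± 0.24 and -1.16 ± 0.23. At 24 h the called genes were others apart from Col1a2: the small proteoglycans Lum (-2.66 ± 0.63) and Dcn (-2.05 ± 0.30), Col1a2 (-1.72 ± 0.23), Thbs2 and the collagen crosslinking enzyme gene Lox, which was named after its value was seen. Col1a2, a chain of collagen I, was called at both times, at 9.97, 9.33 and 10.17 against 8.91, 8.10 and 9.32 at 2 h and at 11.68, 11.88 and 11.88 against 9.86, 10.29 and 10.14 at 24 h. No gene of the list had a called difference between the times. The counts were 7 to 11 at 2 h and 4 to 7 at 24 h when the arrays that stood apart were left out, singly or together. Leaving out each array in turn gave 5 to 11 at 2 h and 2 to 5 at 24 h. The count was 5 without wild-type array 1 or 3 at 2 h. At 24 h it was 2 without wild-type array 1 or 2 or knockout array 1 or 3.

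Of 21 matrix protease genes, 4 were called lower at 2 h and 1 at 24 h, with medians of -0.21 and -0.20. Besides Plat these were Mmp14, a membrane-bound collagenase (-1.71 ± 0.37, adjusted p = 0.0109), Adamts1 (-1.23 ± 0.27) and Mmp19 (-0.96 ± 0.24) at 2 h. With vehicle 4 protease genes were called lower, among them Plat and Mmp14. Stromal markers, a list that shares genes with the matrix list, were called in both directions. Of 11 stromal markers, 1 was called lower at 2 h, and 2 were called lower and 2 higher at 24 h. The 2 lower genes at 24 h were Lum and Dcn, already counted among the matrix genes. The summed stromal level at 24 h was 18.6 to 19.0 in the wild type and 16.6 to 17.0 in the knockout, and all 11 markers were above the floor in both. That sum includes Lum and Dcn, so it is not separate from the matrix genes. The higher stromal genes at 24 h were Vcan and the transcription factor gene Hand2 (1.49 ± 0.27, adjusted p = 0.00222). Of 7 pericyte markers limma called none at 2 h (3 at an unadjusted p under 0.05) and 1 at 24 h, Rgs5 (-1.33 ± 0.22), with a summed level at 24 h of 13.1 to 13.3 in the wild type and 12.2 to 12.5 in the knockout. Of 7 mesothelial markers limma called none at either time, and 0 at 2 h and 7 at 24 h had an unadjusted p under 0.05. The mesothelial median at 24 h was -0.99, and the summed level was 12.5 to 13.1 against 12.6 to 13.6. The part of cell composition in the matrix differences was not tested.

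Epithelial markers were higher in the knockout. Of 14 measured, 2 were called higher at 2 h and 4 at 24 h, and 14 of 14 had a difference above 0 at each time, with medians of 0.56 and 0.84. With vehicle 5 of 14 were called higher, 14 of 14 had a difference above 0 and the median was 1.12, so this was not particular to IGF1. The tight junction gene Cldn3 was at 7.92, 8.12 and 8.76 in the wild type and 9.51, 8.87 and 10.62 in the knockout at 2 h, and at 7.98, 7.65 and 7.39 against 10.36, 9.08 and 10.44 at 24 h. It was 4.87-fold higher at 24 h (adjusted p = 0.000411). Its 2 h call was kept in 8 of 15 alternatives and was lost without knockout array 3 (0.92, adjusted p = 0.222). Cldn4 was called at both times (1.14 ± 0.30 and 1.34 ± 0.30), in 7 and 12 of 15 alternatives, and the keratins Krt7 (1.24 ± 0.28) and Krt8 (1.51 ± 0.39) at 24 h, in 12 and 8 of 15. Without knockout array 2, 7 of 14 were called at 24 h, and without wild-type array 2, 1 of 14 at 2 h. The summed level of the epithelial list was 14.2 to 14.3 in the wild type and 14.9 to 15.4 in the knockout at 2 h, and 14.5 to 14.7 against 14.9 to 15.9 at 24 h. Of 8 gland markers, 2 were called lower at 24 h, Cxcl15 and Ttr, which lay at the floor in the knockout and was at least 1.32-fold lower (adjusted p = 0.00146).

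Of other cell types, the macrophage markers had summed levels of 14.8 to 16.7 in the wild type and 12.8 to 14.8 in the knockout at 2 h, and 15.5 to 16.3 against 13.9 to 15.2 at 24 h, with 0 of 10 called by limma at either time (3 and 4 at an unadjusted p under 0.05) and 1, the complement gene C1qb, called over both times. The 8 adipocyte markers all had a difference above 0 at both times, with medians of 0.81 and 1.01, and limma called none (1 and 0 at an unadjusted p under 0.05). Their summed level was 12.04 to 16.95 in the wild type and 14.1 to 16.1 in the knockout at 2 h, and 10.1 to 13.5 against 11.8 to 14.1 at 24 h, so the groups overlapped. Of the 11 smooth muscle markers limma called none at either time, and 7 had an unadjusted p under 0.05 at 24 h, where the list median was -0.75. The 10 neutrophil markers had no called gene and none at an unadjusted p under 0.05. Of 7 oviduct markers, 2 were called higher at 2 h, Pax2 (1.65 ± 0.29, kept in 14 of 15 alternatives) and Rsph1 (at the floor in both groups, kept in 5 of 15), and Pax2 was called at 24 h (1.17 ± 0.29, kept in 10 of 15). The summed oviduct level was 9.89 to 11.2 in the wild type and 10.8 to 11.3 in the knockout at 2 h, and 10.3 to 10.5 against 11.1 to 15.5 at 24 h, where the highest value was that of knockout array 2 with its high Sprr2f, a gene of the list. The part of these cell types in the genotype differences was not tested.

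Wnt pathway genes were mostly higher where called, with 3 of 31 higher at 2 h and 5 higher and 1 lower at 24 h, and the list median at 24 h was 0.07. With vehicle 4 were called higher and 2 lower, among them Lgr5, Wnt11 and Wif1. Besides Lgr5, the ligand gene Wnt11 was called at both times, at 6.71, 6.62 and 6.44 in the knockout at 2 h with the wild type at the floor, and was at least 1.56-fold higher at 2 h and at least 1.99-fold higher at 24 h. The related receptor gene Lgr4 was called at 2 h (0.80 ± 0.16). At 24 h the transcription factor gene Lef1 (1.03 ± 0.22), the ligand gene Wnt5a (0.62 ± 0.15) and the feedback inhibitor gene Nkd2 (0.81 ± 0.21) were higher (Wnt5a and Nkd2 were named after their values were seen), and the secreted inhibitor Wif1, at the floor in the knockout, was at least 1.29-fold lower.

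Between the IGF1 times, growth factor genes of other families were called mainly at 2 h, with 4 of 39 higher and 2 lower. Leaving out 1 array gave 1 to 5 higher and 0 to 3 lower at 2 h. With vehicle 4 were called higher and 1 lower, among them Fgf9 and Fgf18. Fst, the activin-binding protein follistatin, was higher by 1.49 ± 0.20 (adjusted p = 0.000144), and Fgf18, the receptor gene Fgfr2 and Fgf9 by 0.99 ± 0.23, 1.07 ± 0.28 and 0.76 ± 0.20. The Fgfr2 call was close to the threshold (adjusted p = 0.0481) and was kept in 5 of 15 alternatives, and Fgf9 was named after its value was seen. Bmp7 (-1.18 ± 0.26) and the VEGF receptor gene Kdr (-0.65 ± 0.15) were lower. At 24 h 1 gene of the list was called, Pgf, at least 1.39-fold higher with the wild type at the floor (adjusted p = 0.00474).

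Among genes of prostaglandin, steroid and retinoid metabolism, 3 of 29 were called higher and 3 lower at each time. Ptgs2, the inducible cyclooxygenase, was at 6.21, 6.45 and 6.78 in the wild type at 2 h and 8.19, 9.58 and 7.73 in the knockout, a difference of 2.02 ± 0.33 (adjusted p = 0.00109) with no overlap. At 24 h it was 1.01 ± 0.33 and was not called. The prostaglandin receptor gene Ptger2 was called higher at both times (1.17 ± 0.23 and 1.39 ± 0.23), and the retinol transporter gene Stra6 at 24 h (1.59 ± 0.21). Aldh1a1 and Akr1c14 were among the lower genes at both times, and Aldh1a2 was lower at 2 h (-1.67 ± 0.28). With vehicle 4 genes of the list were called higher and 3 lower, among them Ptger2, Aldh1a1 and Akr1c14.

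Calls in lists read as IGF1 or estrogen signalling stand beside the shares over all genes. These were 1.03% higher and 0.922% lower at 2 h, and 1.39% and 1.47% at 24 h, so few calls in a list of this size say little about it. None of 25 immediate early transcription factor genes was called by limma at either time, and 4 and 1 had an unadjusted p under 0.05. Of 20 MAPK feedback genes, Dusp6 was lower at 2 h (-1.74 ± 0.39, adjusted p = 0.0168) and Etv5 lower at 24 h (-1.34 ± 0.27, adjusted p = 0.00491). Of 22 FoxO target genes, 1 was called at each time, Arrdc3 higher at 2 h (and also with vehicle) and Cited2 lower at 24 h. The median of that list was 0.51 at 2 h and 0.01 without knockout array 3, and -0.59 at 24 h. Of 22 cholesterol and fatty acid synthesis genes limma called none at 2 h and 12 had an unadjusted p under 0.05. Their median was -1.02, and it was -0.14 without wild-type array 2 and -0.49 without knockout array 3. Of 30 early estrogen response genes, 2 were called at 2 h and 1 at 24 h, and of 22 late secretory genes, 2 and 3. Of 28 ribosome biogenesis genes, Tsr1 was called lower at 2 h and Bop1 higher at 24 h, with medians of -0.36 and 0.28 and 1 and 26 genes above 0. Of 20 ER chaperone genes, 2 were called lower at 2 h, Hyou1 and Edem1, with a median of -0.66, and limma called none at 24 h (4 at an unadjusted p under 0.05). Of 18 cytosolic heat shock genes, 2 were called lower at 2 h, Hsph1 and Stip1, with a median of -0.30, and limma called none at 24 h (6 at an unadjusted p under 0.05). At 2 h these 3 lists had 0 to 6, 0 to 7 and 0 to 5 genes called lower when 1 array was left out, with the most without knockout array 1. Limma called no gene of the respiratory chain (1 and 8 of 25 at an unadjusted p under 0.05) or of glycolysis (2 and 3 of 18).

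**Figure D4:**
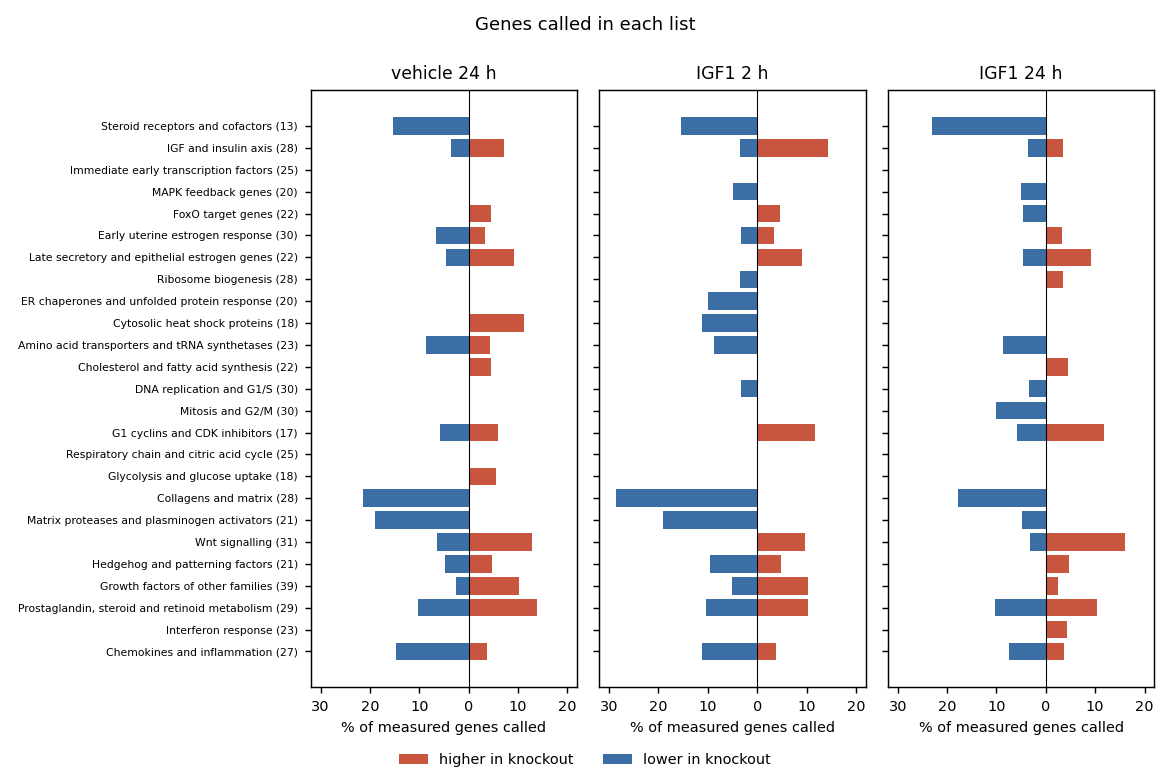
Share of the measured genes of each list (number measured in brackets) called higher (red, to the right) or lower (blue, to the left) in the knockout with vehicle, under IGF1 at 2 h and under IGF1 at 24 h. Collagens and matrix extend only to the lower side in all 3 panels, with 8 of 28 genes at 2 h and 5 of 28 at 24 h.

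Much of the genotype difference under IGF1 was also present with vehicle, where 486 genes were called higher in the knockout (1.61%) and 393 lower (1.3%), 841 in all without the array labelled wild-type vehicle array 1. Of the 131 genes higher at both times under IGF1, 108 were also called higher with vehicle and 130 had the same sign. Of the 85 lower genes, 57 were called lower with vehicle and 85 had the same sign. Rxfp1 differed by -3.62 ± 0.35 with vehicle, Slc7a11 by -3.80 ± 0.41 and Cxcl15 by -4.23 ± 0.65. Slc13a5 was at least 13.0-fold higher with vehicle, where the wild type lay at the floor. In the other direction, 183 of the 311 genes higher at 2 h (58.8%) and 86 of the 278 lower (30.9%) were called with vehicle. At 24 h these were 165 of 418 (39.5%) and 171 of 444 (38.5%). Over both IGF1 times the difference of Hdc was 2.43 ± 0.33, and with vehicle it was 1.46 ± 0.47 and not called (adjusted p = 0.110). With vehicle Ptgs2 lay at the floor in the wild type and was not called, and Igf2 differed by 0.64 ± 0.19 and was not called. A call in one condition and not in the other is no test of a change.

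The change itself was tested as a difference of differences. Vehicle mice had 1 injection of saline and the 24 h IGF1 mice 3 injections in PBS, so IGF1, solvent and number of injections cannot be told apart. Between IGF1 at 24 h and vehicle at 24 h, 2 genes passed (0.00664%), Hpgds and the predicted gene Gm25346. Hpgds, a prostaglandin D synthase, was at 9.77, 9.12 and 9.58 in the wild type with vehicle and at 12.96, 13.46 and 11.93 in the knockout. At 24 h of IGF1 it was at 7.47, 8.68 and 7.89 against 6.97, 6.65 and 6.78, so the knockout went from above the wild type to below it. The vehicle difference was 3.29 ± 0.43, the IGF1 difference -1.21 ± 0.43, and the change -4.51 ± 0.61 (adjusted p = 0.00394), which passed in 21 of 21 alternatives. At 2 h the knockout levels of 8.81, 9.13 and 10.93 lay between.

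Between IGF1 at 2 h and vehicle, where the time after injection differs too, 4 genes passed (0.0133%): Creb3l1 and Gna14 (more negative under IGF1), and Trim45 and Slc7a15 (less negative). Without wild-type vehicle array 1, 5 genes passed at 2 h and 1 at 24 h. In a fit of the compared groups alone no gene passed by limma for 2 h, and 1300 had an unadjusted p under 0.05.

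The genotype difference changed between 2 h and 24 h in 19 genes (0.063%), 11 upward and 8 downward. The 6 largest upward changes shared 1 feature, a mean wild-type level that was higher at 2 h than at 24 h or with vehicle. Spon2, a secreted matrix protein, was at 9.29, 8.42 and 9.28 in the wild type at 2 h and 7.21, 6.62 and 6.70 in the knockout. By 24 h it was at 6.61, 6.42 and 6.36 against 6.47, 6.88 and 6.43, and with vehicle at 6.44 to 7.09 against 6.03 to 6.45. The wild type at 2 h stood apart from every other group, and the difference changed by 2.28 ± 0.29 (adjusted p = 0.000947). Creb3l1, an endoplasmic reticulum membrane-bound transcription factor, was at 9.60, 9.12 and 9.79 against 7.85, 7.38 and 7.22 at 2 h and at 7.46, 7.0002 and 7.43 against 7.11, 7.86 and 7.11 at 24 h. Gna14, a G protein alpha subunit, was at 9.72, 9.44 and 9.73 against 8.00, 8.38 and 8.08 at 2 h, and at 8.25, 7.94 and 8.58 against 9.07, 8.53 and 8.83 at 24 h. The change was 2.08 ± 0.33 for Creb3l1 (adjusted p = 0.0118) and 2.04 ± 0.24 for Gna14 (adjusted p = 0.000297).

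Scube1 and Aldh1a2, a retinoic acid synthesis gene, shared the higher mean wild-type level at 2 h, with changes of 3.04 ± 0.58 and 2.28 ± 0.39. In both genes, as in Gna14, every knockout array at 24 h also lay above those at 2 h. The changes therefore lay in both genotypes. The wild-type levels of Scube1 overlapped between the times. Aldh1a2 was at 10.24, 9.55 and 10.99 in the wild type against 8.69, 8.84 and 8.24 at 2 h and at 8.96, 8.75 and 9.22 against 9.56, 9.52 and 9.70 at 24 h. Slc6a2, the noradrenaline transporter gene, crossed over. It was at 8.73, 8.69 and 9.30 against 7.51, 8.79 and 7.16 at 2 h, with overlap, and at 7.42, 7.13 and 7.91 against 9.24, 9.38 and 9.35 at 24 h, with the knockout higher by 1.84 ± 0.36.

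The 5 named downward changes had another shape, a lower mean wild-type level at 2 h than at 24 h or with vehicle. Fap, a surface protease of activated fibroblasts, was at 6.52, 6.13 and 6.47 in the wild type at 2 h and at 7.49, 7.34 and 7.05 at 24 h, with the knockout between 5.95 and 6.31 at both times. Il1rl2, a receptor of the interleukin 1 family, was at 8.11, 8.29 and 8.05 against 7.95, 8.01 and 7.92 at 2 h and at 8.54, 9.36 and 8.64 against 7.27, 7.17 and 7.30 at 24 h. Every knockout array of Il1rl2 at 24 h lay below those at 2 h, so its change lay in both genotypes. Fibin (at the floor in the knockout at 24 h), Tmem196 and the zinc finger gene Zbtb7c changed by -1.63 ± 0.30, -1.56 ± 0.30 and -1.004 ± 0.18. Spon2 and Gna14 passed in 20 of 21 alternatives and Creb3l1 in 18, whereas the other 8 named genes passed in 7 to 13. A fit of the compared groups alone passed no gene (2529 at an unadjusted p under 0.05), and without knockout array 1 at 2 h 137 genes passed.

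**Figure D5:**
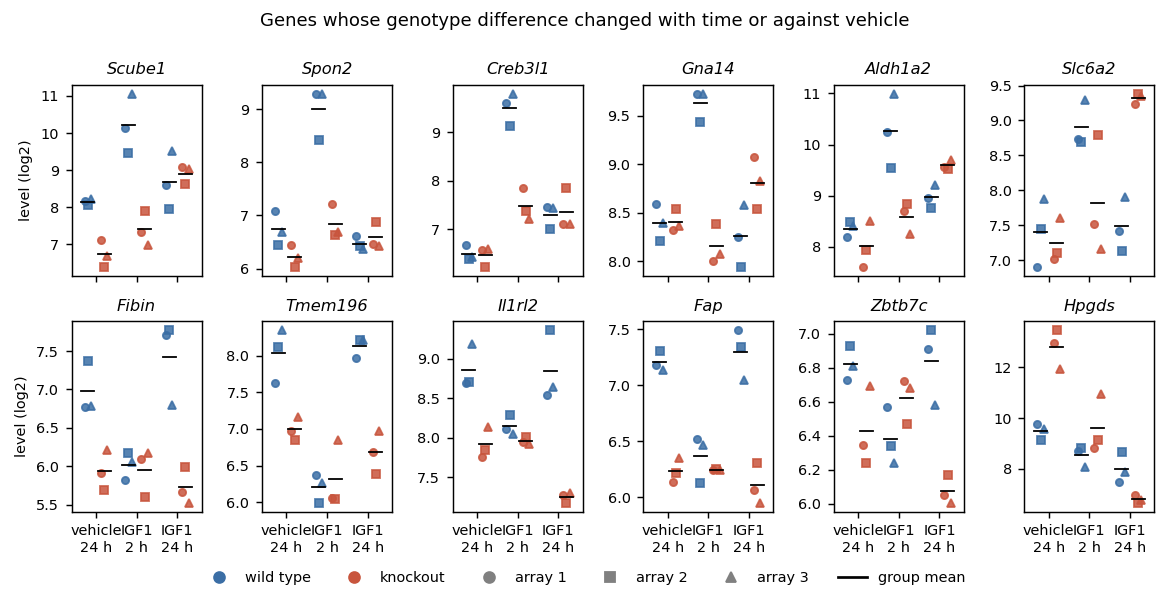
Log2 levels of the 11 named genes whose genotype difference changed between 2 h and 24 h, and of Hpgds, in every vehicle and IGF1 array (blue wild type, red knockout, marker shape the array number, line the mean). Spon2 reaches 9.29 in the wild type at 2 h and stays between 6.03 and 7.21 in the knockout, and Hpgds of the knockout lies between 11.93 and 13.46 with vehicle and between 6.65 and 6.97 at 24 h of IGF1.

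Promoter windows from 250 bases before to 50 bases after the gene start (RefSeq, GRCm38.p6) were held for 106 of the 131 genes higher at both times, for 45 of the 85 lower genes and for 17970 of the 30142 genes tested. The full estrogen response element (GGTCA, any 3 bases, TGACC, on either strand) was in none of the windows of the higher or lower genes and in 11 of all windows (0.0612%). The core AGGTCA, on either strand and able to overlap the full element, was in 13.2% of the windows of higher genes, 24.4% of those of lower genes and 16.8% of all. The AP-1 site (TGANTCA) was in 2.83%, 11.1% and 8.55%, the FoxO core (TGTTTAC) in 4.72%, 6.67% and 3.54%, and the E-box (CACGTG) in 7.55%, 4.44% and 8.95%. These are descriptions of short windows and say nothing of binding elsewhere.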

How the data were processed

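RNA of whole uterus was measured on Affymetrix arrays, from 300 ng total RNA with the WT Plus kit per the labels' protocols. The authors deposited log2 values per probe set and array, and the sources used here do not name the software or normalization behind them. No counts exist, so the number of arrays limits precision. Of 72688 probe sets, 30604 had 1 gene symbol in the platform annotation, and 2146 with several were left out, as were 39938 not listed. This gave 30142 genes, with 355 measured by more than 1 probe set, of which the one with the highest mean was kept. Symbols of 827 probe sets were updated through RefSeq.

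Group means of 10 groups over 30 arrays were fitted with limma 3.58.1 in R 4.3.3 (lmFit, contrasts and eBayes), which left 20 residual degrees of freedom, with Benjamini-Hochberg adjustment over all genes. Fold changes written as "at least" set the brighter group's mean against the higher of the array floor and the dim group's own level. The script was tested on simulated data. The alternatives were other scaling, removal of dim genes, another rule for several probe sets, another prior, array weights, a replicate block, a fit of the compared groups alone and each array left out. Leaving out the 4 arrays that stand apart was chosen after seeing the data.

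The text names the genes of largest change, at least 2-fold and without overlap between groups, of each comparison, the members of the steroid receptor and IGF lists, and up to 4 called genes of each other list. The comparison, the 26 pathway and 19 marker lists and this rule were chosen with earlier results of these data known, and one list was taken from them and is not used here. Gm25346, Xist and the genes that describe single arrays were named after their values were seen.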

Additional observations from a re-analysis of the deposited data

Results flagged for a closer look

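The genotype difference under IGF1 changed between 2 h and 24 h, by a limma test of the difference itself, in 11 named genes. The change, as the 24 h minus the 2 h difference on the log2 scale, was 3.04 for Scube1, 2.92 for Slc6a2, 2.28 for Aldh1a2, 2.28 for Spon2, 2.08 for Creb3l1 and 2.04 for Gna14. It was -1.63 for Fibin, -1.56 for Tmem196, -1.41 for Il1rl2, -1.06 for Fap and -1.004 for Zbtb7c.

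The difference also changed against vehicle. For Hpgds the 24 h IGF1 difference minus the vehicle difference was -4.51. For the 2 h IGF1 difference minus the vehicle difference the values were 1.47 for Trim45, 1.17 for Slc7a15, -1.99 for Creb3l1 and -1.49 for Gna14. Slc7a15 lay at the floor in both groups at 2 h. Solvent differs between the IGF1 and vehicle groups as well, together with time after injection at 2 h and number of injections at 24 h, so these and IGF1 cannot be told apart.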

How the results depend on the processing

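The higher and lower genes at 2 h (311 and 278) were 236 and 254 after centring, 302 and 336 after quantile normalization and 404 and 552 without knockout array 1. At 24 h (418 and 444) they were 389 and 335 after centring. The change at 24 h against vehicle (0 up, 2 down) was 7 up and 2 down without knockout array 2 at 24 h. The count at 2 h (589) was 24 when the fit held the compared groups alone. At 24 h (862) it was 2536 with array weights and 1416 without the 4 arrays that stand apart, and over both times (1548) it was 2531 and 2457. With vehicle (879) it was 2444 with array weights and 211 in the fit of the compared groups alone. The genes called at both times (216) were 10 in that fit and 398 without the 4 arrays. The change between 2 h and 24 h (19) was 7 after centring (6 up, 1 down), 10 after quantile normalization (8 up, 2 down), 40 with array weights and 0 in the fit of the compared groups alone (limma, 2529 at an unadjusted p under 0.05). The change at 24 h against vehicle (2) was 1 after centring, 1 after quantile normalization, 18 with array weights and 8 without the 4 arrays. The change at 2 h against vehicle (4) was 0 after quantile normalization (2436 at an unadjusted p under 0.05), 7 with dim genes removed, 8 with array weights, 0 in the fit of the compared groups alone (1300 at an unadjusted p under 0.05) and 15 without the 4 arrays. Apart from the smaller fits, the cause was not tested. Leaving out each array in turn gave 270 to 956 genes at 2 h, 352 to 860 at 24 h, 1090 to 1894 over both times, 120 to 226 at both times, 470 to 844 with vehicle, 2 to 137 for the change between the times, and 1 to 9 and 0 to 8 for the changes at 24 h and 2 h against vehicle.

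The replicate numbers did not pair the samples, with correlations of deviations between -0.148 and 0.139 for arrays of the same number. With the replicate block the counts were 552 at 2 h, 862 at 24 h, 1535 over both times and 201 at both times, and the change at 24 h against vehicle had 1 gene. Genes at the array floor have only a bound on their fold change.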
